A study of Homo sapiens with 24 samples.

Results

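The response of the bladder cancer cell line CLS-439 to mitomycin C, a DNA crosslinking drug used against bladder cancer, was set against the responses of 3 other bladder cancer lines, T24, 5637 and TCC-SUP. The response of a line is the log2 ratio of a gene's level in treated over untreated cells, and the measured difference is the CLS-439 response minus the equally weighted mean of the other 3 responses. A positive difference therefore means a higher response in CLS-439. The groups were CLS-439 with the drug, CLS-439 without it, and likewise T24, 5637 and TCC-SUP with and without it, in 3 libraries each. CLS-439 accounts for 6 of the 24 libraries and the other lines for 18. Treated cells received 75 µM mitomycin C for 1 h, with RNA collected 15 h later. Libraries were made from poly(A) RNA with a kit that keeps the strand, and replicates, which the study's design calls biological, carry the numbers 1, 3 and 4. The p-values measure the spread between these libraries, and each line is 1 established culture rather than a sample of patients. The test took the libraries as independent. Yet treated libraries with the same number in T24, 5637 and TCC-SUP deviated from their group means together, with correlations across genes of up to 0.533. The p-values that involve the mean of these lines do not allow for this. Counts from a fit with a block shared by the lines are given further below.

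Mitomycin C is inert until cellular enzymes reduce it, after which it alkylates DNA and can join the opposite strands. Joined strands block both replication and transcription. Cells answer such damage through p53, which switches on genes that halt the cycle, repair DNA or start cell death. Other branches include NF-kB, which drives inflammatory genes, the AP-1 family of immediate-early factors, and the integrated stress response, which slows protein synthesis and induces ATF3 and DDIT3. Long genes are more exposed to any block of transcription because the polymerase must cross more DNA to finish them.

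CLS-439 libraries held 13791428 to 20863429 counted reads, against 19384501 to 28821665 in the other lines. In CLS-439 the epithelial keratins KRT7, KRT8 and KRT18 averaged 1550, 617 and 136 CPM (a gene's count scaled to the library total) over the 6 libraries. They were the highest of 14 urothelial and epithelial markers, of which 11 were tested. Of these, 9 averaged 1 CPM or more in CLS-439, against 8 in T24, 11 in 5637 and 10 in TCC-SUP. The keratin KRT19 was low in CLS-439. The summed level of 8 fibroblast markers was 994 to 1880 CPM, nearly all from the collagen COL1A1 (1380 CPM on average), and in TCC-SUP it was 4180 to 11500 CPM. The fibroblast genes PDGFRB and PDGFRA averaged 23.3 and 9 CPM in CLS-439, while DCN and COL1A2 were near 0. Endothelial markers summed to at most 1.83 CPM in CLS-439, with CDH5 at 0, and blood markers to 7.5 to 10.3 CPM, most of it LYZ. CLS-439 libraries stood apart in 2 ways. Reads from the mitochondrial chromosome made up 0.0238 to 0.0283% of CLS-439 counts, against 3.21 to 7.4% in the other lines, and processed pseudogenes took 2.75 to 3.05%, against 0.143 to 0.228%. Whether the RNA of this line matches the human reference was not tested, and this touches every level given for it.

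Far fewer genes passed the test of the response in CLS-439 than in each of the other lines. Of 20820 genes tested, 62 rose (0.298%) and 67 fell (0.322%) in CLS-439 at an adjusted p under 0.05, or 0.62% in either direction. In T24, 3162 rose (15.2%) and 2785 fell (13.4%), or 28.6% in all. In 5637, 3305 rose (15.9%) and 2823 fell (13.6%), or 29.4%. In TCC-SUP, 1993 rose (9.57%) and 2313 fell (11.1%), or 20.7%. Their mean response rose for 23.3% of genes and fell for 19.9%, or 43.2% in all. The sizes of the responses were also smallest in CLS-439. Among the 9796 genes at 5 CPM or more in both CLS-439 and the other lines, the median absolute response was 0.131 on the log2 scale in CLS-439, against 0.367 in T24, 0.335 in 5637 and 0.292 in TCC-SUP. A response of at least 1 upwards occurred for 15 genes in CLS-439, against 483 in T24, 457 in 5637 and 163 in TCC-SUP. A response of at least 1 downwards occurred for 36 genes in CLS-439, against 550, 559 and 501 in the same order of lines. The median standard error of a response was 0.174 in each line, because all lines share the estimated spread per gene. Treated CLS-439 libraries differed less from each other, with a chi-square per gene of 4.62 to 18.6. It was 19.8 to 119 in treated T24, 21.6 to 72.1 in treated 5637 and 30.9 to 49.3 in treated TCC-SUP. The shared spread may thus be too wide for CLS-439, which would lower its number of calls. How many calls this cost was not tested.

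The difference itself was tested by edgeR's quasi-likelihood test with Benjamini-Hochberg adjustment over all genes. The response was higher in CLS-439 for 995 genes (4.78%) and lower for 1203 (5.78%), or 10.6% in all. With a log2 difference of at least 1 as well, 393 genes (1.89%) were higher and 627 (3.01%) lower, or 4.9%. Most of these genes moved in the other lines and passed no test in CLS-439. Passing no test was usual in CLS-439, where 0.62% of all genes were called, against 43.2% in the mean of the others. That mean rests on 18 libraries and the CLS-439 response on 6. Of the 995 genes with a higher CLS-439 response, 937 fell in the mean of the other lines with no call in CLS-439. Of the 1203 with a lower response, 1148 rose in the mean of the other lines with no call in CLS-439. Genes called in CLS-439 with no call in the mean of the other lines numbered 15 on the higher side and 13 on the lower. The sign was the same against each of the 3 lines for 985 of the 995 and 1159 of the 1203, and it was also the same at every replicate number for 983 and 1146. The comparisons with single lines share the CLS-439 libraries, so these counts are not independent. Fewer genes were called when a CLS-439 library was left out. Without untreated replicate 1, 3 or 4 the counts were 611 and 732, 538 and 768, and 603 and 809 (higher and lower). Without treated replicate 1, 3 or 4 they were 512 and 716, 827 and 936, and 680 and 790.

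**Figure D1:**
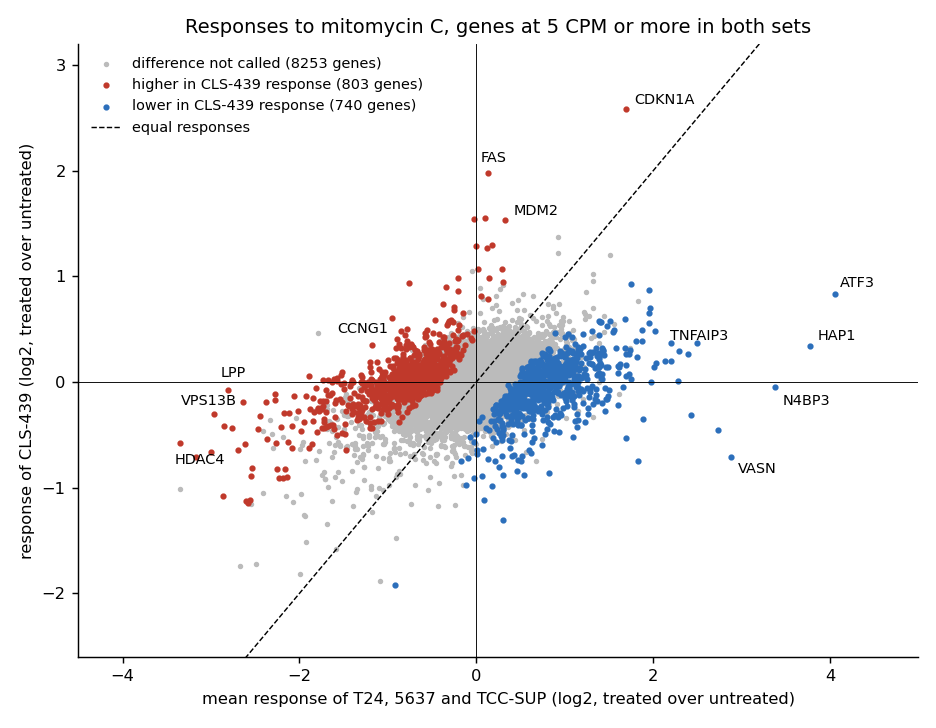
Response of each gene to mitomycin C in CLS-439 (vertical axis, log2 of treated over untreated) against the mean response of T24, 5637 and TCC-SUP (horizontal axis, same unit), for 9796 genes at 5 CPM or more in both sets. Of these, 803 had a higher response in CLS-439 (red) and 740 a lower one (blue), and the red and blue clouds lie along the horizontal axis, far from the dashed line of equal responses.

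The responses still shared a direction in part. Across the 9796 genes, Pearson's r between the CLS-439 response and the mean of the others was 0.41 and Spearman's rho 0.353, a description across genes that are not independent. The middle range of responses (interquartile range) was 0.261 wide in CLS-439 and 0.602 wide in the mean of the others. By single lines, Pearson's r was 0.303 with T24, 0.397 with 5637 and 0.391 with TCC-SUP. Tested against 1 line at a time, the CLS-439 response was higher for 986 genes (4.74%) and lower for 1124 (5.4%) against T24, or 10.1% of genes. It was higher for 812 (3.9%) and lower for 1066 (5.12%) against 5637, or 9.02%. It was higher for 300 (1.44%) and lower for 251 (1.21%) against TCC-SUP, or 2.65%. Only 97 genes were called higher and 111 lower against every line as well as against their mean. The counts against TCC-SUP depended most on single libraries, with 99 higher and 75 lower without untreated CLS-439 replicate 1, 85 and 86 without its replicate 3, 60 and 55 without treated TCC-SUP replicate 3, and 866 and 583 without treated TCC-SUP replicate 1.

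The p53 targets moved in CLS-439 as well. Of 33 measured targets, 11 rose in CLS-439 and none fell, against 14 rising and 3 falling in T24, 11 and 1 in 5637, and 11 and 0 in TCC-SUP. Over all genes, 0.298% rose in CLS-439, against 15.2% in T24, 15.9% in 5637 and 9.57% in TCC-SUP. The median response of the 33 was 0.72 in CLS-439, against 0.38 in T24, 0.38 in 5637 and 0.27 in TCC-SUP. The CLS-439 response was higher than the mean of the others for 8 targets, or 24.2% (background 4.78%), and lower for 2, or 6.06% (background 5.78%), with a median difference of 0.18 against -0.04 over all genes. CDKN1A, which encodes the p21 inhibitor that halts the cell cycle (ENSG00000124762, chromosome 6, 36676460 to 36687339), was measured at 319, 463 and 628 CPM in treated CLS-439 and at 69.3, 75.8 and 90 CPM in untreated CLS-439. It stood at 218, 154 and 175 CPM in treated T24 and at 38.2, 31.1 and 21.6 CPM in untreated T24. In all 4 lines every treated library lay above every untreated one. The response was 2.58 (SE 0.21) in CLS-439, 2.59 (SE 0.21) in T24, 1.27 (SE 0.20) in 5637 and 1.21 (SE 0.20) in TCC-SUP. The difference of 0.90 (SE 0.23, adjusted p = 0.0145) therefore came from 5637 and TCC-SUP, since against T24 alone it was near 0 (adjusted p = 1).

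MDM2, the ubiquitin ligase that p53 induces and that degrades p53 in turn (ENSG00000135679, chromosome 12, 68808176 to 68850686), had a higher response than in each other line. It reached 156, 129 and 163 CPM in treated CLS-439, against 48.1, 52.1 and 54.7 CPM in untreated CLS-439. In T24 the levels were 136, 179 and 152 CPM with the drug and 129, 108 and 122 CPM without it. The groups did not overlap in either line, but the CLS-439 response was 1.53 (SE 0.15) and the T24 response 0.38 (SE 0.15, adjusted p = 0.06). The difference from the mean was 1.21 (SE 0.17, adjusted p = 0.000126), and it was 1.16 against T24, 1.22 against 5637 and 1.26 against TCC-SUP (adjusted p = 0.00121, 0.000713 and 0.00396). FAS, the death receptor (ENSG00000026103, chromosome 10, 88990582 to 89015785), was at 10.7, 11.5 and 17.4 CPM in treated CLS-439 and 2.63, 3.83 and 3.66 CPM in untreated CLS-439. It was at 12.2, 19.2 and 15.4 CPM in treated T24 and at 20.4, 18.7 and 20.1 CPM in untreated T24. Treated CLS-439 thus came up to a level that the other lines held with or without the drug. The FAS response was 1.98 (SE 0.23) in CLS-439, -0.34 (SE 0.21) in T24, 0.12 (SE 0.21) in 5637 and 0.60 (SE 0.21) in TCC-SUP. Its difference of 1.85 (SE 0.25, adjusted p = 7.49e-05) was called against each line.

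Of the other targets with a higher response in CLS-439, RRM2B, SESN1 and ZMAT3 passed no test in T24, 5637 or TCC-SUP. RRM2B, a p53-inducible subunit of ribonucleotide reductase, differed by 1.12 (SE 0.26) and rose by 1.29 in CLS-439. SESN1, a stress-induced regulator of growth signalling, differed by 1.19 (SE 0.20) and rose by 0.98. ZMAT3, an RNA-binding p53 target, differed by 1.05 (SE 0.26) and rose by 1.07. PHLDA3, an inhibitor of AKT signalling, differed by 0.84 (SE 0.23) and rose by 0.98 in CLS-439 and by 0.84 in T24. CCNG1, a cyclin that p53 induces, had a higher response in CLS-439 while T24 and 5637 fell. It was at 351, 249 and 280 CPM in treated CLS-439 and 250, 211 and 225 CPM in untreated CLS-439, groups that overlapped. In treated T24 it fell to 63.8, 61.3 and 51 CPM, against 207, 149 and 149 CPM in untreated T24. The CCNG1 difference of 1.24 (SE 0.22, adjusted p = 0.001) thus reflected falls of 1.52 in T24 and 0.71 in 5637 on the log2 scale beside a CLS-439 response of 0.36 (adjusted p = 0.71). EDA2R, a receptor of the tumour necrosis factor family, was at 15.9, 15.3 and 20.5 CPM in treated CLS-439 and 6.9, 5.77 and 7.11 CPM in untreated CLS-439. It had 0 counts in all 18 libraries of the other lines, which allows up to 0.104 to 0.155 CPM per library (3 counts), so no difference of response is given.

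GADD45A and XPC went the other way. GADD45A, a stress gene that acts in repair and cell cycle control (ENSG00000116717, chromosome 1, 67685061 to 67688338), was at 78.2, 101 and 101 CPM in treated CLS-439 and 54.9, 86.4 and 73.3 CPM in untreated CLS-439, overlapping groups. In T24 it reached 689, 655 and 822 CPM with the drug, against 76.5, 74.8 and 91.9 CPM without it. The difference was -1.48 (SE 0.18, adjusted p = 1.38e-05), and it was -2.76 against T24, -1.37 against 5637 and -0.32 against TCC-SUP, where it was not called (adjusted p = 0.49). XPC, which recognises bulky DNA damage, differed by -0.86 (SE 0.24, adjusted p = 0.0216). Of the remaining targets, TNFRSF10B, a death receptor, rose in all 4 lines, by 0.61 in CLS-439, with a difference of -0.04. DDB2, DNA damage recognition, rose by 0.88 in CLS-439 with a difference of 0.61 that missed the threshold (adjusted p = 0.0513). BBC3, which encodes the pro-apoptotic PUMA, had a response of 1.15 in CLS-439 that was not called, and rose by 2.12 in T24 and 2.20 in 5637.

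**Figure D2:**
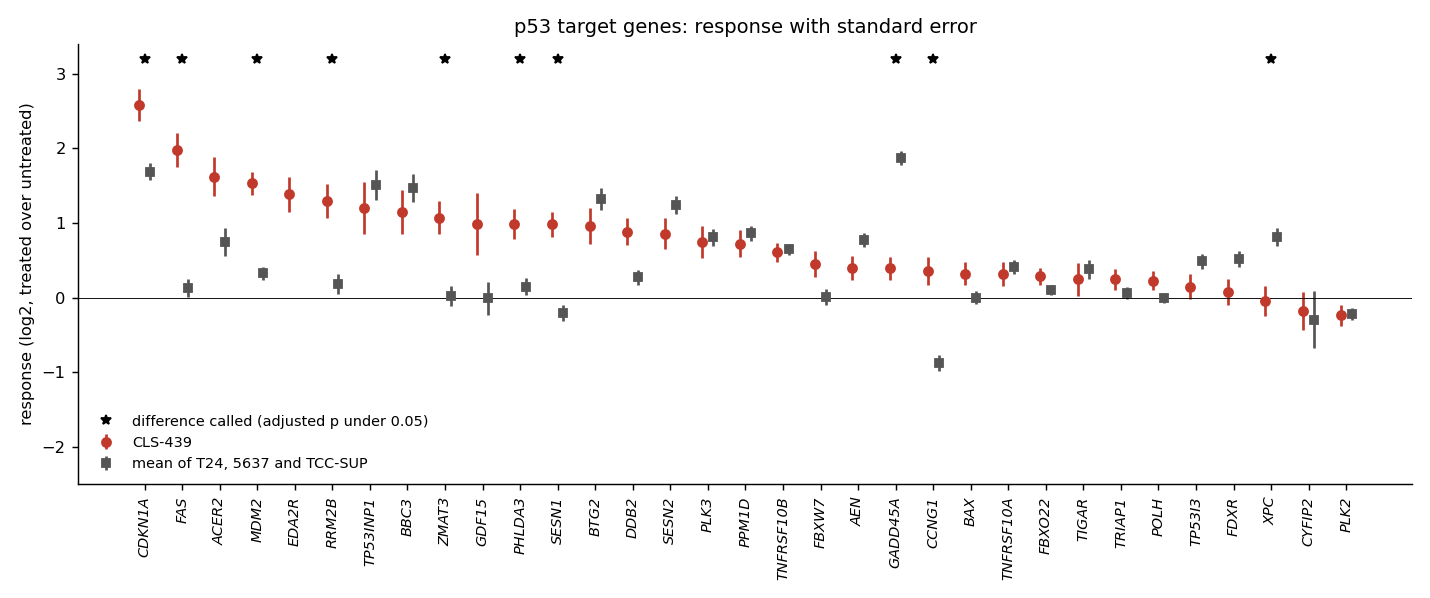
Response of the 33 measured p53 targets (vertical axis, log2 of treated over untreated) in CLS-439 (circles) and in the mean of T24, 5637 and TCC-SUP (squares, none for EDA2R, which had no counts there), with bars of 1 standard error. Stars mark the 10 called differences, 8 higher and 2 lower in CLS-439, and all but 3 of the circles lie above 0.

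Among NF-kB targets and cytokines many responses were lower in CLS-439. As examples of the motifs searched for, promoter stretches of 4 genes of the stress lists follow, from RefSeq (GRCh38.p14), 5′ to 3′ on the gene's strand. Capitals mark matches to the NF-kB consensus in TNFAIP3, which encodes the feedback inhibitor A20, in NFKBIA, which encodes the inhibitor of NF-kB, and in CXCL2, a chemokine. In PPP1R15A, an integrated stress response gene, they mark a cyclic AMP response element, TGACGTCA. The stretches lie at chr6:137867188-137867217 (plus strand), chr14:35404750-35404999 (minus strand), chr4:74099253-74099282 (minus strand) and chr19:48872171-48872391 (plus strand). The RefSeq start and the start of the GENCODE gene differ. Of the 250 bases upstream of the RefSeq start, 71 in TNFAIP3 and 98 in CXCL2 lie past the GENCODE start. The TNFAIP3 and CXCL2 matches fall in that part, so within the gene as GENCODE gives it.
TNFAIP3: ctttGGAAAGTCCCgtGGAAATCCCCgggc
NFKBIA: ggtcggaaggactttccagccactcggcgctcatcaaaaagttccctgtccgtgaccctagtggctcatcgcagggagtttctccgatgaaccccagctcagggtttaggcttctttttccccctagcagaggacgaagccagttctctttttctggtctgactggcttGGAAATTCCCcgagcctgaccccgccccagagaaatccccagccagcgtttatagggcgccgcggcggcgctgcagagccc
CXCL2: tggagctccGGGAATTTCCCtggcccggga
PPP1R15A: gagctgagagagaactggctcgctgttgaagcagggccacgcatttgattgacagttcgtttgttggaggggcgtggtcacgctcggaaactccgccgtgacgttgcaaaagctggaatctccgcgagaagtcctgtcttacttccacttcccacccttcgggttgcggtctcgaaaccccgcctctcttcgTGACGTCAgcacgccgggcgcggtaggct
Of the 27 NF-kB list members tested, 23 were matched in the promoter table, and 11 of these (47.83%) held the consensus on either strand within 250 bases upstream of the RefSeq start, against 1380 of all 27305 promoters (5.05%). Matches may overlap, as both in CXCL2 do. The response element TGACGTCA occurred in 1.77% of all promoters and in 3 of 19 matched AP-1 list members. The AP-1 motif itself, TGANTCA with N for any base, occurred in 0 of these 19. It was found in 6.6% of all promoters and in 3 of the 23 matched NF-kB list members. The p53 half-site was found in 3 of 27 matched p53 targets (11.11%), against 5.53% of all promoters. These matches are letters in a window and not measured binding. The NF-kB and p53 lists were drawn up as targets of those factors, so their shares are no test of the CLS-439 response.

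Of the 27 measured NF-kB genes, 1 rose in CLS-439 (TRAF1, an adaptor of tumour necrosis factor receptors, at 1.99), against 24 in T24, 20 in 5637 and 15 in TCC-SUP. The share of all genes that rose was 0.298% in CLS-439, 15.2% in T24, 15.9% in 5637 and 9.57% in TCC-SUP. Against the mean of the others the CLS-439 response was lower for 14 (51.9%, background 5.78%) and higher for none, with a median difference of -1.27. TNFAIP3 (ENSG00000118503, chromosome 6, 137867188 to 137883312), with the pair of consensus matches shown above, stood at 84.7, 105 and 114 CPM in treated CLS-439 and at 70.1, 94.7 and 88 CPM in untreated CLS-439. It reached 1060, 1380 and 1590 CPM in treated T24, against 42.4, 59.5 and 91 CPM in untreated T24. In 5637 it was at 837, 656 and 892 CPM with the drug and 311, 292 and 339 CPM without it. Only in CLS-439 did the treated and untreated libraries overlap. The difference was -2.13 (SE 0.29, adjusted p = 7.13e-05), led by T24 (-4.12), while it missed the threshold against 5637 (-1.07, adjusted p = 0.0512) and TCC-SUP (-1.19, adjusted p = 0.0657). RELB, a subunit of NF-kB, was at 8.12, 11.7 and 11.4 CPM in treated CLS-439 and 8.59, 10.4 and 8.29 CPM in untreated CLS-439, and differed by -2.01 (SE 0.23), with no call against 5637 alone (-0.67, adjusted p = 0.122). NFKB2, another subunit, differed by -1.42 (SE 0.18), NFKBIE, an inhibitor, by -1.24 (SE 0.23), and ICAM1, an adhesion molecule, by -1.08 (SE 0.27). NFKBIA, whose promoter carries the single match above, was at 10.8, 14.5 and 14.3 CPM in treated CLS-439 and 11.4, 12.5 and 12 CPM in untreated CLS-439, and differed by -0.73 (SE 0.16, adjusted p = 0.00525). That NFKBIA difference was -1.71 against T24, -0.05 against 5637 and -0.42 against TCC-SUP, of which the first alone was called.

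The chemokines were low in CLS-439 with or without the drug. CXCL2 was at 4.12, 3.31 and 3.57 CPM in treated CLS-439 and at 5.05, 5.3 and 4.58 CPM in untreated CLS-439, with every treated library below every untreated one. In 5637 it stood at 617, 252 and 379 CPM with the drug, against 74.2, 53 and 49.6 CPM without it. The CXCL2 difference was -2.80 (SE 0.31, adjusted p = 9.22e-06) and was called against each line. IL11, a cytokine of the interleukin 6 family, was the most abundant cytokine of the list in CLS-439. It was at 29.2, 87.9 and 67.3 CPM in treated CLS-439 and at 29.1, 47.6 and 37.3 CPM in untreated CLS-439, which overlapped, and differed by -1.27 (SE 0.34, adjusted p = 0.0172). IL6, CXCL3 and CXCL8 also had lower responses, from mean levels of at most 1.49 CPM in CLS-439. Of the 27 genes, 12 were at 5 CPM or more in both sets, and the median difference of these was -1.10. Several members, such as IL1B, CCL20 and CSF2, were at or near 0 in CLS-439, so their fitted responses say little. Leaving T24 out of the mean gave a list median of -0.93, and leaving TCC-SUP out gave -1.72.

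Few genes of the immediate-early and AP-1 list passed the test in CLS-439, as was true of all genes there (0.62%). Of 24 immediate-early genes, 1 rose in CLS-439 (MAFF, a small MAF factor, at 0.93), against 21 in T24, 17 in 5637 and 8 in TCC-SUP. Set against the mean, 11 were lower in CLS-439 (45.8%, background 5.78%) and none higher, with a median difference of -0.71. ATF3, a stress-induced repressor of the ATF family (ENSG00000162772, chromosome 1, 212565334 to 212620777), was at 41.2, 62.2 and 57.7 CPM in treated CLS-439, against 26.3, 31.7 and 32.5 CPM in untreated CLS-439. In T24 it was at 136, 163 and 96.9 CPM with the drug and at 3.02, 3.15 and 2.08 CPM without it. Untreated CLS-439 already stood close to the lowest library of treated TCC-SUP, which was at 31, 65.5 and 41.5 CPM, and in no line did the groups overlap. The ATF3 response of 0.83 (SE 0.27) in CLS-439 was not called (adjusted p = 0.25), and the difference of -3.22 (SE 0.33, adjusted p = 3.09e-06) was called against each line, at -4.76 against T24, -3.50 against 5637 and -1.41 against TCC-SUP. FOS and FOSB, AP-1 subunits, differed by -2.42 (SE 0.51) and -2.37 (SE 0.40). DUSP1, a phosphatase that ends MAP kinase signals, differed by -1.23 (SE 0.20), and NR4A1, an orphan nuclear receptor, by -1.38 (SE 0.23). JUN, with responses of 0.12 in CLS-439 and -0.03 in TCC-SUP, had a difference of -0.25 that was not called.

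Of 20 integrated stress response genes, none rose or fell in CLS-439, where edgeR's test gave no call although 14 of the 20 responses were above 0. This is near the share of all genes called in CLS-439 (0.62%). T24 had 15 rises, 5637 had 10 rises and 3 falls, and TCC-SUP had 2 rises and 5 falls. The CLS-439 response was lower for 7 (35%, background 5.78%) and higher for 1 (5%), with a median difference of -0.48. DDIT3, which encodes the pro-apoptotic factor CHOP (ENSG00000175197, chromosome 12, 57516588 to 57521737), stood at 24.4, 24.8 and 20.7 CPM in treated CLS-439 and 23.7, 23 and 20.8 CPM in untreated CLS-439. In T24 it reached 56.4, 73.1 and 75.1 CPM with the drug, against 10.5, 7.95 and 9.13 CPM without it. The CLS-439 and TCC-SUP values hardly moved, and the difference of -1.64 (SE 0.18, adjusted p = 9.22e-06) was called against T24 (-2.83) and 5637 (-1.91) but not against TCC-SUP (-0.17, adjusted p = 0.772). PPP1R15A, which restores protein synthesis after stress, was at 59.2, 103 and 83.3 CPM in treated CLS-439 and 58.3, 63.4 and 54.2 CPM in untreated CLS-439. It was at 559, 534 and 717 CPM in treated T24 and 74.2, 80.2 and 77.9 CPM in untreated T24, and differed by -1.54 (SE 0.18). GADD45B differed by -1.51 (SE 0.19) and CHAC1, a glutathione-degrading enzyme, by -1.66 (SE 0.39). Against TCC-SUP alone 4 of the 20 genes were called higher in CLS-439 and none lower, so the direction of this list depended on the line chosen. The 1 gene called higher against the mean was DDIT4, an inhibitor of mTOR, which fell in 5637 and TCC-SUP.

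**Figure D3:**
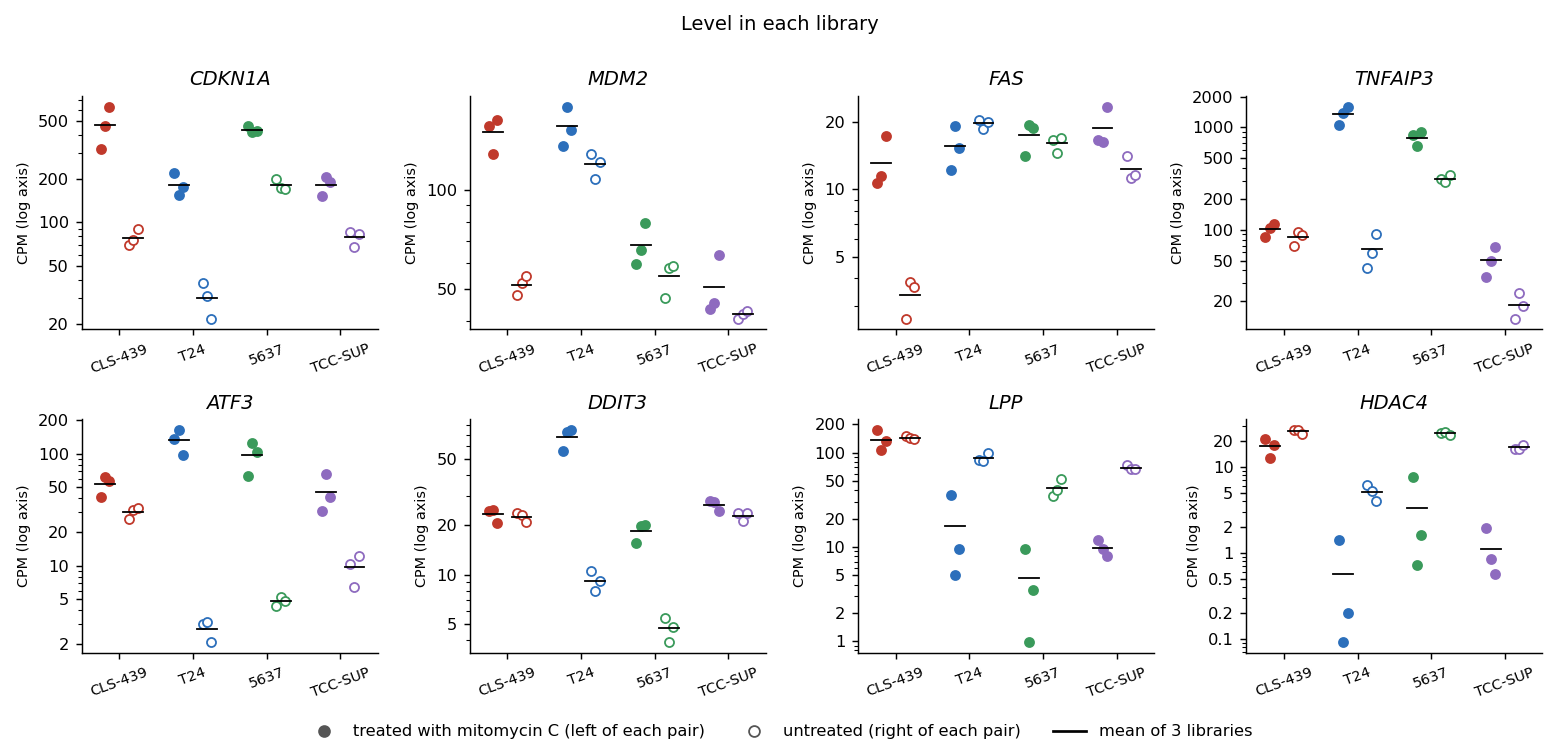
Level of 8 genes in each of the 24 libraries (vertical axes, CPM on a log scale), by line, with treated libraries as filled circles left of the untreated ones (open circles) and the mean of 3 as a line. CDKN1A, MDM2 and FAS separate clearly in CLS-439, while TNFAIP3, DDIT3 and LPP stand at nearly the same level in its treated and untreated libraries and move in T24 and 5637.

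The cell cycle genes split by phase. No gene of the G1/S transition or of replication was called as rising in CLS-439, where 0.298% of all genes were. Of 26, none rose and 1 fell there, against 10 rises and 2 falls in T24, 18 and 1 in 5637, and 15 and 2 in TCC-SUP. A lower response in CLS-439 was called for 11 (42.3%, background 5.78%) and a higher one for none, with a median difference of -0.38. All 26 were at 5 CPM or more in both sets. E2F2, an activator of S-phase genes (ENSG00000007968, chromosome 1, 23506430 to 23531220), was at 17.1, 12.2 and 12.6 CPM in treated CLS-439 and 15.7, 12.3 and 13.9 CPM in untreated CLS-439. In 5637 it was at 41.9, 51.4 and 49.9 CPM with the drug and at 6.4, 5.26 and 5.75 CPM without it. The groups overlapped in CLS-439 and in none of the other lines, and the difference of -1.98 (SE 0.21, adjusted p = 4.08e-06) was called against each line. E2F1, a related activator, differed by -1.12 (SE 0.14), CCNE1, the cyclin that starts S phase, by -1.15 (SE 0.18), CDT1, a licensing factor, by -1.26 (SE 0.20), and MCM2, a helicase subunit, by -0.99 (SE 0.13).

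MCM5, another subunit of the replicative helicase (ENSG00000100297, chromosome 22, 35400063 to 35425430), was the 1 member that fell in CLS-439. It was at 69.1, 90 and 75.1 CPM in treated CLS-439, against 108, 123 and 117 CPM in untreated CLS-439, while in 5637 it was at 166, 192 and 173 CPM with the drug and 139, 138 and 139 CPM without it. The groups were separate in both lines and in opposite directions, and the difference was -0.79 (SE 0.14, adjusted p = 0.00123). Genes of G2 and mitosis showed 1 called difference. Of 30, none rose and 7 fell in CLS-439, against 16 falls in T24, 15 in 5637 and 7 in TCC-SUP. Over all genes, 0.322% fell in CLS-439, against 13.4% in T24, 13.6% in 5637 and 11.1% in TCC-SUP. The median response was -0.37 in CLS-439, -0.65 in T24, -0.47 in 5637 and -0.28 in TCC-SUP. The 1 called difference was that of BUB1B, a spindle checkpoint kinase (0.59, SE 0.17, edgeR adjusted p = 0.0263), or 3.33% of the list (background 4.78%). CCNB1, the mitotic cyclin, fell by 1.01 on the log2 scale in CLS-439 with a difference of 0.18 (SE 0.15), and PLK1, a mitotic kinase, fell by 1.01 with a difference of 0.34 (SE 0.16). CDC20, which activates the anaphase-promoting complex, fell by 1.23 with a difference of -0.04 (SE 0.17). A difference that misses the threshold at these standard errors does not show equal responses.

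Of 16 replication-dependent histone genes, 2 fell in CLS-439, where 0.322% of all genes did. The response was lower for 3 (18.8%, background 5.78%), with a median difference of -0.81. HIST1H1C, a linker histone, was at 20.6, 25.5 and 22.3 CPM in treated CLS-439, against 42.1, 41.6 and 43 CPM in untreated CLS-439. In T24 it was at 3.9, 4.64 and 4.39 CPM with the drug and 4.26, 3.98 and 3.4 CPM without it. CLS-439 alone of the 4 lines showed separate groups, and the difference was -0.96 (SE 0.19, adjusted p = 0.00228). Of the 16, 3 were at 5 CPM or more in both sets. Most such mRNAs lack a poly(A) tail, for which the libraries select. H1F0, a linker histone outside this list, was measured at 12.4, 7.6 and 6.91 CPM in treated CLS-439 and 46.4, 28.5 and 25.9 CPM in untreated CLS-439, and fell by 1.92 (SE 0.29). Its difference from the mean of the other lines was smaller than this fall, at -0.995 (edgeR adjusted p = 0.0482). That call was lost in 19 of 37 alternative settings.

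Genes of protein folding and sterol synthesis passed no test in CLS-439. Over all genes the share called was 0.62% in CLS-439, 28.6% in T24, 29.4% in 5637 and 20.7% in TCC-SUP. A list of this length with no call is thus near the share of all genes in CLS-439. Of 20 genes of the unfolded protein response, none passed the test in CLS-439 in either direction, against 3 rises and 7 falls in T24, 2 and 13 in 5637, and 0 and 12 in TCC-SUP. The CLS-439 response was higher for 6 (30%, background 4.78%) and lower for 2 (10%), with a median difference of 0.37. HSPA5, the main chaperone of the endoplasmic reticulum, was at 801, 581 and 607 CPM in treated CLS-439 and 779, 803 and 738 CPM in untreated CLS-439. It stood at 464, 342 and 334 CPM in treated 5637 and at 1620, 1680 and 1420 CPM in untreated 5637. The groups overlapped in CLS-439 alone, and the difference was 1.14 (SE 0.19, adjusted p = 0.000433), with 1.83 against 5637, 1.21 against TCC-SUP and 0.38 against T24, which was not called (adjusted p = 0.333). ERN1, the sensor kinase IRE1, went the other way, with a difference of -1.52 (SE 0.22) and rises in T24 and 5637.

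Of 22 cholesterol synthesis genes, none passed the test in CLS-439 (0.62% of all genes did). T24 had 10 falls, 5637 had 13 falls and 1 rise, and TCC-SUP had 5 falls. The response was higher in CLS-439 for 5 (22.7%, background 4.78%) and lower for none. MSMO1, a sterol oxidase, was at 100, 84.9 and 80.3 CPM in treated CLS-439 and at 86.9, 85.3 and 82.3 CPM in untreated CLS-439. In T24 it was at 11.3, 19.1 and 13.9 CPM with the drug and 54.8, 49.9 and 51.2 CPM without it. The difference was 1.12 (SE 0.24, adjusted p = 0.00417), and INSIG1, which restrains sterol synthesis, differed by 1.08 (SE 0.22). Without T24 in the mean, the call of MSMO1 was lost. ME1, the malic enzyme that supplies NADPH and an NRF2 target, differed by 1.39 (SE 0.23), and TKT, transketolase, by 0.89 (SE 0.21). Of 20 NRF2 targets, 3 had a higher response (15%, background 4.78%) and 1 a lower one (5%, background 5.78%).

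Among genes read by immune cells, few were called in CLS-439, as was true of all genes there (0.62%). Of 17 ligands of natural killer cells and immune checkpoints, 1 rose in CLS-439, against 9 in T24, 10 in 5637 and 8 in TCC-SUP. The CLS-439 response was lower for 6 (35.3%, background 5.78%), among them MICB (-1.02, SE 0.20), ULBP1 (-1.63, SE 0.35) and RAET1L (-2.44, SE 0.37), which bind the activating receptor NKG2D. Of the 17, 8 were at 5 CPM or more in both sets, with a median difference of -0.20 against -0.47 over all 17, and a fit to genes at that level called 2 lower. The gene that rose was TNFRSF14, a receptor for both activating and inhibitory partners. It was at 11.6, 9.74 and 12.8 CPM in treated CLS-439, against 5.31, 4.09 and 4.53 CPM in untreated CLS-439. In T24 the levels were 25, 13.9 and 16 CPM with the drug and 22.7, 16.7 and 13.6 CPM without it. CLS-439 was the line in which the groups separated, and the TNFRSF14 difference was 1.30 (SE 0.27, adjusted p = 0.00379). Of 15 MHC class I genes, 2 had lower responses (13.3%), HLA-B (-0.65, SE 0.18) and HLA-E (-0.77, SE 0.16). Of 28 interferon-stimulated genes, 2 did (7.14%, background 5.78%), ISG20 and MX1, while none rose in CLS-439, 21 rose in T24, 8 in 5637 and 2 in TCC-SUP.

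The next lists are closer to the drug, to DNA repair and to cell death. Of 24 genes of crosslink repair, none passed the test in CLS-439 (0.62% of all genes did), and 2 had lower responses (8.33%, background 5.78%). These were UBE2T, which marks crosslinks for repair by ubiquitin (-1.20, SE 0.17, adjusted p = 8.99e-05), and FANCG of the Fanconi anaemia core complex (-0.53, SE 0.13, adjusted p = 0.013). UBE2T was at 15.7, 13.7 and 12.3 CPM in treated CLS-439 and at 22.5, 18.7 and 20.6 CPM in untreated CLS-439. In treated 5637 it was at 140, 111 and 104 CPM, against 69.7, 64.4 and 54.5 CPM in untreated 5637. The UBE2T groups separated downwards in CLS-439, where the response of -0.57 was not called (adjusted p = 0.0742), and upwards in 5637. Of 11 drug-reducing enzymes and efflux pumps, POR (-0.57, SE 0.16) was lower and AKR1C1 (1.39, SE 0.43) higher, and the pump ABCB1 rose by 0.92 in CLS-439 with a difference of 0.62 (SE 0.69) that was not called. Of 19 pro-apoptotic regulators, 3 rose in CLS-439, the death receptors FAS and TNFRSF10B, which the p53 list also holds, and APAF1, the scaffold of the apoptosome. APAF1 was at 61.8, 48.4 and 53.3 CPM in treated CLS-439 and 33.3, 29.4 and 30.1 CPM in untreated CLS-439, and differed by 0.77 (SE 0.18, adjusted p = 0.00909). Of the 19, 2 had a higher response in CLS-439 (10.5%, background 4.78%) and 4 a lower one (21.1%, background 5.78%). The lower ones included BCL2L11 (-1.15, SE 0.36), BIK (-1.33, SE 0.34) and BMF (-1.51, SE 0.41), which promote cell death through BCL2 proteins. None of 76 ribosomal protein genes and none of 13 mitochondrially encoded genes had a called difference by edgeR, and 2 of 13 heat shock chaperones were higher (15.4%, background 4.78%). All 76 ribosomal protein genes were at 5 CPM or more in both sets. Of the 13 mitochondrially encoded genes only 3 were, so their lack of calls says little.

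**Figure D4:**
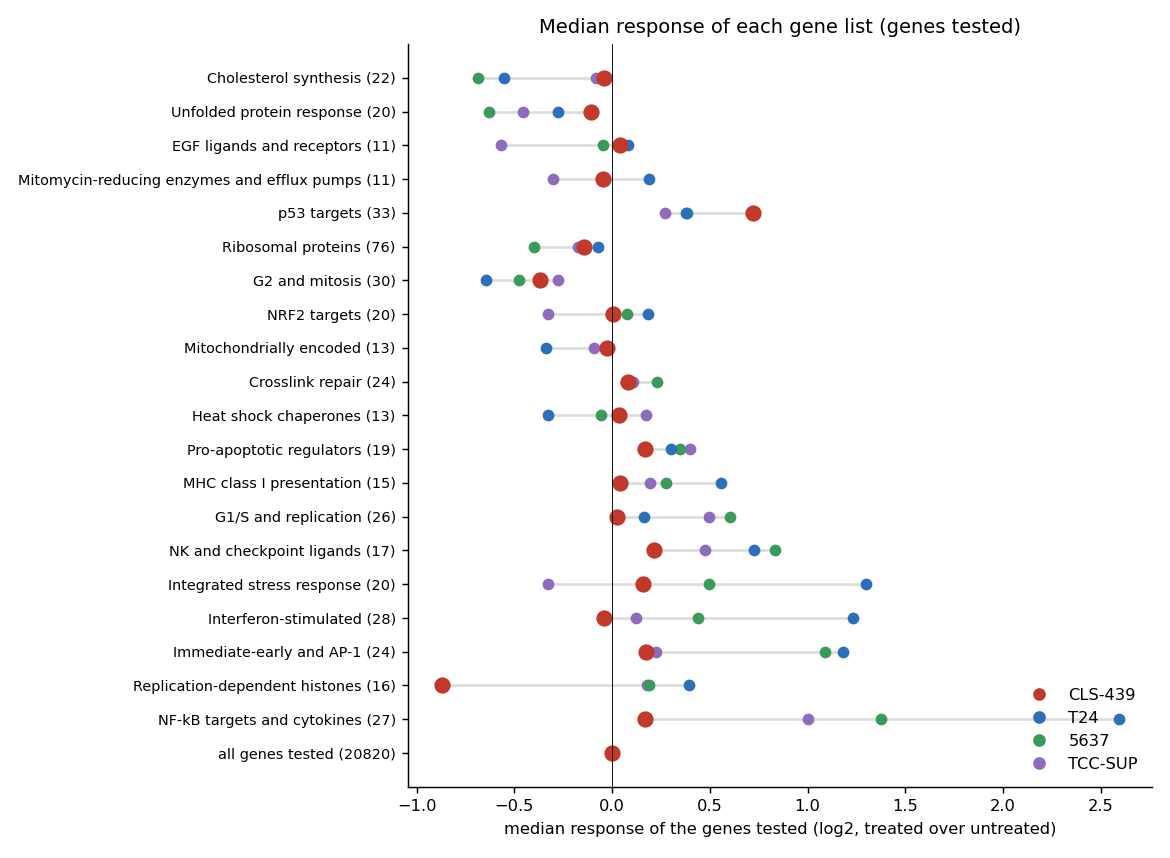
Median response of each gene list (horizontal axis, log2 of treated over untreated, over the genes tested, whose number stands in brackets) in CLS-439, T24, 5637 and TCC-SUP. The NF-kB list has medians of 2.59 in T24, 1.38 in 5637 and 1.00 in TCC-SUP, against 0.17 in CLS-439, while for p53 targets CLS-439 is highest at 0.72.

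The differences followed gene span, the distance from a gene's first to last annotated base. Among genes at 5 CPM or more in both sets, the CLS-439 response was higher for 27 of 65 genes of 500 kb or more (41.5%) and lower for none. In the class from 200 to 500 kb it was higher for 189 of 554 (34.1%) and lower for 2. In the class under 10 kb it was higher for 34 of 1723 (1.97%) and lower for 238 (13.8%). For the whole set of 9796 genes 8.2% were higher and 7.55% lower. Over all genes tested, with no limit on level, 45 of 245 genes of 500 kb or more were higher (18.4%) and 4 lower, against 230 of 1058 from 200 to 500 kb (21.7%) and 85 of 7462 under 10 kb (1.14%), so the share did not grow further in the longest class. The median response of the longest class was -0.30 in CLS-439, against -1.32 in T24, -1.58 in 5637 and -1.83 in TCC-SUP. In the class from 200 to 500 kb it was -0.08 in CLS-439, against -0.64, -0.77 and -0.93 in the same order of lines. Below 10 kb it was -0.07 in CLS-439, against 0.10 in T24, 0.09 in 5637 and 0.12 in TCC-SUP. Spearman's rho between response and span over these genes was 0.081 in CLS-439, -0.318 in T24, -0.331 in 5637 and -0.428 in TCC-SUP. Among these 245 genes the median response was -0.52 in CLS-439, against -0.91 in T24, -1.42 in 5637 and -1.70 in TCC-SUP. Of the 245, 13 fell in CLS-439, against 92 in T24, 122 in 5637 and 161 in TCC-SUP. The share of all genes that fell was 0.322%, 13.4%, 13.6% and 11.1% in the same order.

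**Figure D5:**
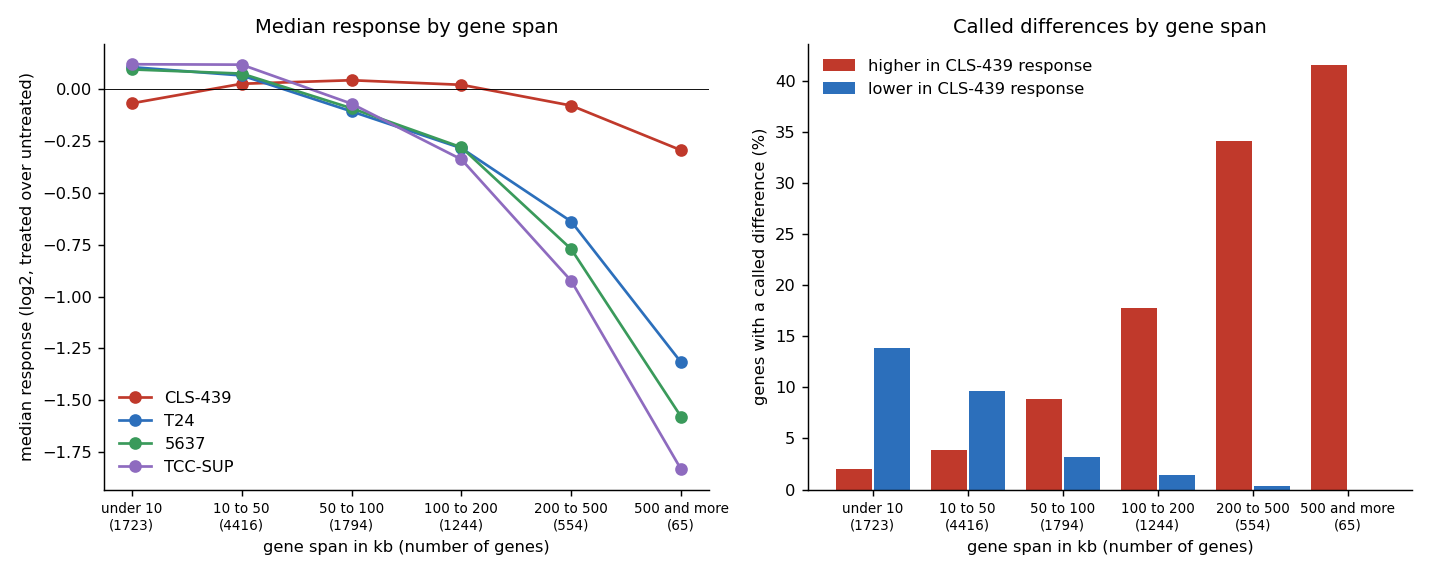
Left, median response (log2 of treated over untreated) in each line by class of gene span in kb, for genes at 5 CPM or more in both sets, with the number of genes in brackets. Right, percent of genes in each class with a called difference, higher (red) or lower (blue) in the CLS-439 response. The T24, 5637 and TCC-SUP medians reach -1.32 to -1.83 at 500 kb and more, where CLS-439 stands at -0.30, and the red bars reach 41.5%, against 18.4% of all 245 genes tested in that class.

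The 12 genes with the largest positive differences were nearly all long. They were taken by size among called genes at 5 CPM or more in both sets with the same sign against every line and at every replicate number. HDAC4, a class II histone deacetylase that spans 353.5 kb (chromosome 2, 239048168 to 239401654), led at 2.78 (SE 0.62, adjusted p = 0.0061). It was at 21.2, 12.8 and 18.1 CPM in treated CLS-439 and 26.8, 26.5 and 24.2 CPM in untreated CLS-439. In TCC-SUP it was at 1.92, 0.844 and 0.571 CPM with the drug and 16.1, 16.3 and 18 CPM without it. LPP, a focal adhesion protein of 737.4 kb (chromosome 3, 188153284 to 188890671), followed at 2.73 (SE 0.59). It was at 174, 106 and 133 CPM in treated CLS-439 and 152, 142 and 140 CPM in untreated CLS-439. In T24 the levels were 35.3, 5 and 9.43 CPM with the drug and 83.5, 81.4 and 98.5 CPM without it, and in 5637 they were 9.64, 0.981 and 3.49 CPM against 34.4, 40.5 and 52.5 CPM. Treated replicate 1 stood above the other treated libraries in all 4 lines (11.8 CPM in TCC-SUP), and the LPP groups overlapped only in CLS-439.

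VPS13B, a lipid transfer protein of 864.3 kb, differed by 2.13 (SE 0.28, adjusted p = 5.12e-05), with 31.3, 21.7 and 26 CPM in treated CLS-439 and 33.8, 28.4 and 36.1 CPM in untreated CLS-439. In 5637 it was at 10.1, 5.5 and 8.95 CPM with the drug, against 41.2, 45.6 and 56.9 CPM without it. The others were BTBD9 (2.66), SUPT3H (2.47), GPHN (2.44), MSI2 (2.43), ROR1 (2.34), SBF2 (2.33), TBC1D5 (2.18), MTSS1 (2.16) and PSD3 (2.11). Of these 12, MTSS1 was the shortest at 177.6 kb and TBC1D5 the longest at 1288 kb. MTSS1 was near 0 in TCC-SUP, with 0 counts in its treated libraries, so its size rests on a fitted value there.

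The 12 genes with the largest negative differences by the same rule were short by comparison. VASN, a membrane protein that binds TGF-beta, differed by -3.59 (SE 0.50, adjusted p = 0.000126). It was at 26.6, 54 and 52 CPM in treated CLS-439 and 53.1, 82.8 and 81.5 CPM in untreated CLS-439, while in T24 it was at 12.8, 35.7 and 29.5 CPM with the drug and 1.32, 1.1 and 1.62 CPM without it. TCC-SUP resembled CLS-439 for VASN, and the difference from TCC-SUP was -0.60 (adjusted p = 0.65). HAP1, which binds huntingtin, differed by -3.44 (SE 0.40) and was called against each line. It was at 6.81, 6.87 and 8.03 CPM in treated CLS-439 and 5.69, 5.77 and 5.67 CPM in untreated CLS-439, against 11.7, 32 and 29.1 CPM in treated 5637 and 1.52, 1.26 and 0.965 CPM in untreated 5637. N4BP3 differed by -3.43 (SE 0.32). It was at 9, 11.3 and 11.3 CPM in treated CLS-439 and 10.1, 10.7 and 11.8 CPM in untreated CLS-439, and 2 of the untreated TCC-SUP libraries held none of it, so the size of the N4BP3 difference depends on the fit there. ERFE, the hormone erythroferrone, was at 12.9, 16.6 and 17.7 CPM in treated CLS-439 and 13.6, 12.1 and 12.8 CPM in untreated CLS-439, and differed by -2 on the log2 scale (SE 0.25) with a call against each line. The others were ATF3, TNFAIP3 and RELB, described above, and C15orf48 (-3.19), C1QL1 (-2.57), DUSP8 (-2.26), TLCD1 (-2.23) and LMNTD2 (-2.13). Of the 12, ATF3 spans the most, at 55.44 kb.

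Opposite calls were rare. In 4 genes CLS-439 rose while the mean of the others fell, and in 4 it fell while they rose. At 5 CPM or more in both sets, 1 gene was of the first kind and 3 of the second. PLEKHA8, a lipid transfer adaptor of the Golgi, was at 99.8, 94.8 and 93.5 CPM in treated CLS-439, against 64.6, 54.6 and 60.7 CPM in untreated CLS-439. In T24 it was at 12.5, 13 and 14.4 CPM with the drug and 19.1, 17.6 and 22.6 CPM without it. The groups of both lines were separate, and the difference was 0.93 (SE 0.16, adjusted p = 0.000867). MCM5, given above, TRMT61A, a tRNA methyltransferase subunit (-1.18, SE 0.23), and ARHGEF39, a guanine nucleotide exchange factor (-1.06, SE 0.18), fell in CLS-439 and rose in the mean of the others. For each of the 4 genes, some of the other lines passed no test alone.

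The largest called changes within CLS-439 that also differed from the mean of the other lines were CDKN1A, FAS, SERPINB5, MIR34AHG, GJB5 and AKR1C2 upwards. SERPINB5, the serpin maspin, was at 4.31, 2.87 and 4.77 CPM in treated CLS-439, against 0.604, 0.892 and 1.34 CPM in untreated CLS-439. In T24 it was at 29.2, 19.3 and 22.1 CPM with the drug and 61.3, 68.3 and 66.4 CPM without it. Both lines had separate groups in opposite directions, and the difference was 2.89 (SE 0.27, adjusted p = 8.66e-07). MIR34AHG, the host transcript of the p53-induced miR-34a, was at 7.75, 8.96 and 11.9 CPM in treated CLS-439 and 2.42, 1.47 and 2.73 CPM in untreated CLS-439, and differed by 1.5 on the log2 scale (SE 0.37, adjusted p = 0.0101). GJB5 and AKR1C2 were at under 2 CPM in CLS-439. Downwards, EDN2, the vasoactive peptide endothelin 2, was at 10, 6.19 and 7.22 CPM in treated CLS-439, against 24.3, 17.5 and 20.6 CPM in untreated CLS-439. It was near 0 in T24 and 5637, and its difference was -3.04 (SE 0.67, adjusted p = 0.00589). CYP24A1, which degrades active vitamin D, was at 15.9, 5.51 and 5.22 CPM in treated CLS-439 and 39.3, 30.8 and 17.6 CPM in untreated CLS-439, and differed by -1.75 (SE 0.46, adjusted p = 0.0156). FAM84B differed by -1.60 (SE 0.26). FAR2 fell in all 4 lines and least in CLS-439, with a difference of 1.00 (SE 0.31). AKAP6 fell in CLS-439, 5637 and TCC-SUP, and its difference of 2.20 (SE 0.68) had the opposite sign against T24 (-0.98, adjusted p = 0.717).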

How the data were processed

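Messenger RNA was sequenced in 24 libraries of 4 human bladder cancer lines. The authors deposited raw read counts per Ensembl gene, made with STAR 2.5.3a and featureCounts 1.6.2 on GRCh38 per the submitters' processing notes. Neither labels nor headers state the annotation release, the strand setting or how multiply mapped reads were treated, which makes near-identical copies, overlapping genes and antisense genes uncertain. The treated samples' tag spells the drug MCC and was read as mitomycin C, which the protocol names. Of 58381 IDs, 58216 occur in GENCODE 29 (GRCh38), the source of symbols and coordinates. The other 165 held 0.0072% of reads.

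The test was that of edgeR 4.0.16 (R 4.3.3). After filterByExpr (20820 genes, 99.94% of reads) and TMM scaling, 1 robust quasi-likelihood model took all 24 libraries, with each group as a term (16 residual degrees of freedom), and contrasts gave each response and each difference. Genes were called at an adjusted p under 0.05. CPM are TMM-scaled, and a library's value needs no error, while SE belong to log2 values. Of the genes tested, 2766 were under 0.1 CPM in CLS-439. Counting error limits low genes, and 3 counts were taken as what a count of 0 allows. No 2 libraries of a group agreed within sampling noise (lowest chi-square per gene 3.92). DESeq2 1.42.0 was an alternative. On simulated counts (20228 genes) the test of this difference found 74% of planted 2-fold changes and 100% of planted 4-fold changes, with 9 false calls. The changes were planted in treated CLS-439 alone, and the other lines had no response. Libraries were drawn independently, unlike the treated libraries of the other lines, which deviated together by number. The rates may therefore not hold for the measured differences.

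The members and the 24 gene lists were chosen with earlier results of these data known, so list counts and medians are descriptions without a test. Genes named by rule were the 12 largest differences each way among 1506 called genes at 5 CPM or more in both sets with the same sign against every line, all opposite calls at that level, the 6 largest called CLS-439 rises and falls with a called difference, and list members. No row was found for 3 symbols of the lists. One list member is not reported here. Whether replicate numbers pair libraries was checked by correlating, per number and line, how the treated and the untreated library deviated from their group means. At least 1 value was under 0.1 in each line over all genes, and in T24 and TCC-SUP over genes at 5 CPM or more, so the numbers were not taken as pairs.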

Additional observations from a re-analysis of the deposited data

Results flagged for a closer look

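The treatment responses of 2 sets of cells differed by the test of the difference itself, which places every called difference here. Against the mean of the other lines 995 genes were higher and 1203 lower in CLS-439. Against T24 the counts were 986 and 1124, against 5637 they were 812 and 1066, and against TCC-SUP 300 and 251.

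Among called genes at 5 CPM or more in both sets with 1 sign against every line and at every replicate number, the largest positive log2 differences were those of HDAC4 (2.78), LPP (2.73), BTBD9 (2.66), SUPT3H (2.47), GPHN (2.44), MSI2 (2.43), ROR1 (2.34), SBF2 (2.33), TBC1D5 (2.18), MTSS1 (2.16), VPS13B (2.13) and PSD3 (2.11). Under the same limits the largest negative ones were those of VASN (-3.59), HAP1 (-3.44), N4BP3 (-3.43), ATF3 (-3.22), C15orf48 (-3.19), C1QL1 (-2.57), DUSP8 (-2.26), TLCD1 (-2.23), TNFAIP3 (-2.13), LMNTD2 (-2.13), RELB (-2.01) and ERFE (-2). Larger called differences exist among genes below that level. Opposite calls placed PLEKHA8 (0.93), TRMT61A (-1.18), ARHGEF39 (-1.06) and MCM5 (-0.79) among them.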

How the results depend on the processing

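None of the 95 named differences reversed under the alternatives run on them, of which the limit to 5 CPM or more in both sets kept 68. The other called differences were not followed one by one. These include list members named above outside the rule, such as RRM2B, NFKB2 and MCM2. The counts against TCC-SUP moved most, to 802 higher and 433 lower with no filter on low counts, and 748 and 595 by DESeq2. In the comparison with the mean of the other lines, DESeq2 left 2826 adjusted p-values undefined. The replicate numbers are no established pairs. Over genes at 5 CPM or more, libraries of a line with the same number, with and without drug, deviated from their group means with correlations of 0.128 to 0.402 in CLS-439 and 0.164 to 0.487 in 5637, but of -0.228 to 0.492 in T24 and -0.221 to 0.096 in TCC-SUP. A replicate block within each line gave 476 higher against TCC-SUP, and a block shared by the lines gave 1660 higher against the mean, 1594 against T24, 1456 against 5637, and 1076 higher and 657 lower against TCC-SUP. Asking also for a log2 difference of at least 1 gave 393 higher and 627 lower against the mean, 506 and 718 against T24, 480 higher against 5637 and 153 lower against TCC-SUP. With genes at 5 CPM or more in both sets, the median difference was 0.088 for p53 targets and 1.034 for genes of 500 kb or more. Leaving T24 out of the mean gave medians of 0.102 for p53 targets, -0.619 for G1/S, -0.932 for NF-kB and -0.475 for AP-1. Leaving 5637 out gave 0.315 for p53 targets. Leaving TCC-SUP out gave -1.718 for NF-kB and -0.862 for AP-1.

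Leaving out 1 library at a time gave 512 to 1483 genes higher and 716 to 1584 lower against the mean, 613 to 1531 and 762 to 1583 against T24, 483 to 1432 and 716 to 1399 against 5637, and 60 to 866 and 55 to 583 against TCC-SUP. Medians ranged from 0.123 to 0.222 for p53 targets, -0.454 to -0.346 for G1/S, -1.451 to -1.241 for NF-kB, -0.883 to -0.587 for AP-1, 0.566 to 0.719 for genes of 200 to 500 kb, and 0.623 to 0.892 for those of 500 kb or more. Leaving out a replicate number in all groups leaves 2 libraries a group. Against the mean, 1845 were higher and 1607 lower without number 1, 127 and 173 without number 3, and 11 and 40 without number 4. Against T24 the counts were 1519 and 1349, 315 and 375, and 22 and 81 in the same order, against 5637 they were 1670 and 1442, 131 and 230, and 19 and 80, and against TCC-SUP 1228 and 724, 4 and 0, and 0 and 0. Medians without number 1 were 0.225 for p53 targets, 0.79 for genes of 200 to 500 kb and 1.037 for those of 500 kb or more. Without number 3 they were 0.127 for p53 targets, -0.466 for G1/S, -1.539 for NF-kB, 0.537 and 0.59 in the same span classes. Without number 4 they were 0.208 for p53 targets, -0.347 for G1/S, -1.462 for NF-kB, -0.786 for AP-1, 0.592 and 0.815. Of the 95 named differences, 22 kept their call without number 4 and 47 without number 3. BCL2L11, MX1, AKR1C2, AKAP6, CALR and H1F0 lost it most often over the settings. The cause of these shifts was not tested.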

Other observations

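Markers kept in the lists to check the cells also moved. PPARG, a nuclear receptor of urothelial differentiation, was at 37.8, 45 and 44.3 CPM in treated CLS-439 and 36.8, 52.2 and 45.8 CPM in untreated CLS-439. In 5637 it was at 63.5, 34.1 and 39.4 CPM with the drug, against 130, 149 and 136 CPM without it, and the difference was 1.15 (SE 0.29, edgeR adjusted p = 0.0133). KRT19, a keratin of simple epithelia, differed by 2.38 (SE 0.51), with 1.17 to 3.06 CPM in treated CLS-439 and 0.472 to 1.25 CPM in untreated CLS-439, so its level was low there. COL1A1 was at 960, 1010 and 1200 CPM in treated CLS-439, against 1500, 1760 and 1840 CPM in untreated CLS-439, and its response of -0.69 (adjusted p = 0.141) differed from the mean by -1.11 (SE 0.24) and from TCC-SUP by 0.15 (adjusted p = 0.878).

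By gene type, 935 of 14776 protein-coding genes (6.33%) had a higher response in CLS-439 and 1072 (7.26%) a lower one. Of 1159 antisense genes, 7 were higher (0.604%) and 47 lower (4.06%), with the strand setting of the counting not given in the sources used here. Of 2216 processed pseudogenes, which take a larger share of reads in CLS-439, 19 were higher (0.857%) and 22 lower (0.993%).

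Treated libraries with the same number in T24, 5637 and TCC-SUP deviated from their group means together, with correlations across genes of up to 0.533, while those of CLS-439 with the others reached at most 0.156.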
